A study of Mus musculus with 9 samples.

Results

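De novo lipogenesis, the pathway that turns surplus carbohydrate into fatty acids, was followed through 10 genes in mouse liver. The genes were chosen by symbol, with earlier results of these data known. They comprise 2 transcription factors (Srebf1 and Mlxipl) and 8 enzymes, carriers or accessory proteins (Slc25a1, Acly, Acss2, Acaca, Acacb, Thrsp, Fasn and Me1). These 10 genes were among 23337 in the count table, and all 10 passed the filter on low counts, as did 13141 genes in all. Poly(A) RNA from whole liver was sequenced with strand information. The mice were C57BL/6, 6 to 8 weeks old at the start, and every group ate a high-fat diet (HFD) for 16 weeks, so no group on another diet enters the comparisons. The 3 groups of 3 mice were WT (PAR2fl/fl, the floxed allele), dHep, with PAR2 deleted in hepatocytes (PAR2dHep), and KO, labelled as a whole-body PAR2 knockout. PAR2, encoded by F2rl1, is a receptor on the cell surface that proteases activate. The Cre driver, the sex of the mice and their feeding state before collection are not given in the sources used here.

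Citrate leaves the mitochondrion and is split in the cytosol to acetyl-CoA, which is carboxylated to malonyl-CoA and built into palmitate with NADPH as reductant. In liver, SREBP-1c (from Srebf1), driven by insulin and liver X receptors, and ChREBP (from Mlxipl), driven by carbohydrate metabolites, raise transcription of most enzymes of the pathway. SREBP-1c is made as a membrane-bound precursor that must be escorted to the Golgi by SCAP and cut before it acts, and ChREBP moves between cytosol and nucleus, so neither transcript level measures the activity of its protein.

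Library totals ran from 18683660 to 30509242 counted reads. F2rl1 was read 17, 27 and 28 times in the WT libraries and 2, 8 and 0 times in the dHep libraries, but 71, 103 and 76 times in those labelled KO. The targeted transcript was thus highest where the label states a knockout, so that group is called the libraries labelled KO. Hepatocyte markers were abundant everywhere, with a summed level of 94411 to 153050 reads per 1000000 counted reads (CPM, scaled by TMM factors). All 7 of them were detected in every group. Markers of pancreatic acinar cells (9 of 9 in the table) summed to 343 CPM in WT replicate 1 and 1319 CPM in dHep replicate 2, against at most 5.02 CPM in the other 7 libraries. The 6 skeletal muscle markers summed to 427 CPM in dHep replicate 2 and at most 39.1 CPM elsewhere. The 5 enterocyte markers summed to 501 CPM in replicate 1 labelled KO and to between 157 and 316 CPM elsewhere. Fabp2 made up nearly all of the sum elsewhere, at 156 to 316 CPM. Alpi, Sis, Lct and Vil1 had 2136, 1620, 558 and 836 reads in replicate 1 labelled KO and at most 26 in any other library. The part of this RNA in the members' values was not tested.

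Both regulators rose in both PAR2 groups, while most of the other members fell in the libraries labelled KO and fewer of them in dHep. In the libraries labelled KO, 7 members (Acly, Acss2, Acaca, Acacb, Thrsp, Fasn and Me1) fell and both regulators rose against WT, which is 9 of 10 members called. The share called over all genes tested was 43.0%, with 20.9% higher and 22.1% lower. In dHep livers Acaca, Fasn and Me1 fell and both regulators rose, 5 of 10 members, where 24.3% of all genes were called, 12.4% higher and 11.9% lower. Slc25a1 did not pass the test in either comparison. Both comparisons use the same 3 WT libraries, so their calls are not independent of each other. The direct comparison of the libraries labelled KO with dHep called 3 members, Acacb, Acss2 and Thrsp, all lower, against 9.62% of all genes called, 4.23% higher and 5.39% lower. The median log2 fold change of the 10 members was -1.77 for KO against WT, -0.46 for dHep against WT and -0.67 for KO against dHep. Over all genes tested these medians were -0.01, 0.02 and -0.02. Calls are at an adjusted p of 0.05 by edgeR's quasi-likelihood test over all 13141 genes. In bulk tissue, fewer cells of a type and less RNA per cell cannot be told apart.

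**Figure D1:**
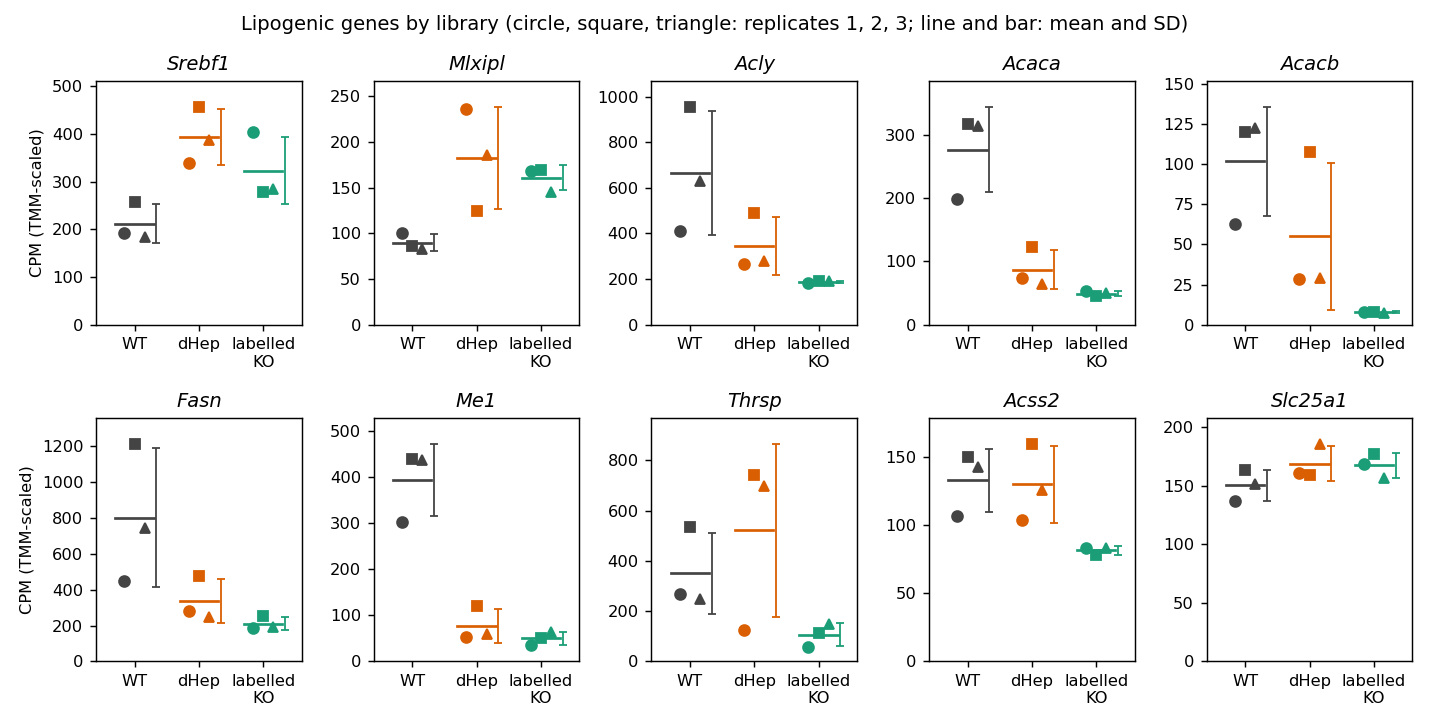
CPM of each of the 10 genes (1 panel each, y axis in TMM-scaled CPM) in the 3 WT, 3 dHep and 3 labelled-KO libraries, with 1 point per library, the group mean as a line and the SD as a bar. Srebf1 and Mlxipl sit higher in both PAR2 groups than in WT, Slc25a1 stays near 137 to 186 CPM in every library, and Acacb drops to 7.21 to 8.13 CPM in the libraries labelled KO.

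The DNA just upstream of 5 members is shown so that 4 genes that fell in the libraries labelled KO (Fasn, Thrsp, Acly and Acss2) can be set beside Slc25a1, which did not pass the test there. The windows of the other members are described by their motifs only. Each line is the 250 bases before the start of the gene in RefSeq (GRCm38.p6, the build of mm10), written 5′ to 3′ on the gene's strand. Capitals mark the motifs searched on both strands: CACGTG (the E-box that USF and related factors read), CCAAT (read by NF-Y), GGGCGG (the GC box read by Sp1) and TCACCCCA (the core of a sterol regulatory element, read by SREBP). Fasn is on the minus strand at chr11:120824548-120824797, Acly on the minus strand at chr11:100528001-100528250, Thrsp on the minus strand at chr7:97417551-97417800, Acss2 on the plus strand at chr2:155517793-155518042 and Slc25a1 on the minus strand at chr16:17928220-17928469.
Fasn: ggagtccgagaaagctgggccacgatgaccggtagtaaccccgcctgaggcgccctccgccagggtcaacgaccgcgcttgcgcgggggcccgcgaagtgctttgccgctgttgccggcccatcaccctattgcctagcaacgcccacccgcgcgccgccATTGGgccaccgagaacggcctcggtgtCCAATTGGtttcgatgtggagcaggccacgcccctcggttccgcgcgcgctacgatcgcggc
Acly: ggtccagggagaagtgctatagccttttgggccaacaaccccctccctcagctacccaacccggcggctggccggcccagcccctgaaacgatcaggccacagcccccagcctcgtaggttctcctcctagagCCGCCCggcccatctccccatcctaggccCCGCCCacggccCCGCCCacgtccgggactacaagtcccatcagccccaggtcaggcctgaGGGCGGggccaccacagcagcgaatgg
Thrsp: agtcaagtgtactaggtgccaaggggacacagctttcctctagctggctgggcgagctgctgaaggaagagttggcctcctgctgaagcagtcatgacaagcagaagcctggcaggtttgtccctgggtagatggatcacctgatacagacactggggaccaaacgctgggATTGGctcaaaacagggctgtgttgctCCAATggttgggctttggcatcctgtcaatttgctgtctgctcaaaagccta
Acss2: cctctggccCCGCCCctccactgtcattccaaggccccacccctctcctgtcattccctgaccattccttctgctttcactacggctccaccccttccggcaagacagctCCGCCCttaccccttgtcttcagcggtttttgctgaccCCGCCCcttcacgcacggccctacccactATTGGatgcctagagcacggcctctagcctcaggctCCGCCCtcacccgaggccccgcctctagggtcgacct
Slc25a1: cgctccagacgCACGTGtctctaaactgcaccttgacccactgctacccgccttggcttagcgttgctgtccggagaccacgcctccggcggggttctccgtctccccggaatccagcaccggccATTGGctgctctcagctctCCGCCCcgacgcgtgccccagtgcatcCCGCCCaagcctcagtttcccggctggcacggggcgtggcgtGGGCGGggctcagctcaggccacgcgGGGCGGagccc

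Fasn held 3 CCAAT matches, whose first bases lie 90, 62 and 59 bases before the start, the last 2 overlapping each other on opposite strands. Thrsp held 2, at 79 and 52 bases. Acly held no CCAAT match but 4 GC boxes, at 117, 88, 76 and 27 bases. Acss2 held 1 CCAAT match, at 73 bases, with 4 GC boxes. Slc25a1 held an E-box at 239 bases, a CCAAT match at 125 bases and 4 GC boxes, so its window has all the kinds of match seen in the 4 genes that fell. All 10 members had an upstream window in the RefSeq table, 14 windows in all. CCAAT was present in 9 of the 14 windows, in 8 of 10 members, against 33.8% of all 32851 windows of this length. GC boxes were in 7 windows, against 32.7%. The E-box was in 2 windows, 1 of Mlxipl and that of Slc25a1, against 6.02%, and TCACCCCA was in 0, against 1.34%. A match is a description of letters, and a missing match says only that those letters are not in the window.

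Per length, in transcripts per 1000000 (TPM), the pathway was led by Thrsp in WT liver, at 734 ± 328 TPM (SD, n = 3). Acly followed at 327 ± 132 TPM, then Me1 at 241 TPM, Slc25a1 at 196 TPM, Fasn at 176 ± 83.1 TPM, Srebf1 at 107 TPM and Acss2 at 102 TPM. Neighbours in that run overlapped between libraries, whereas Thrsp stood above Acly without overlap. Acaca, at 66.8 TPM, and Mlxipl, at 53.7 TPM, overlapped each other below them, and Acacb was lowest at 26.2 ± 8.76 TPM. In the libraries labelled KO the order differed: Thrsp, Slc25a1 and Srebf1 were the top 3 members, at 171, 169 and 128 TPM, with overlapping libraries. Acly was at 72.3 ± 0.853 TPM there, Fasn at 35.8 TPM, Acaca at 9.23 TPM and Acacb at 1.55 ± 0.141 TPM. In dHep livers Thrsp again led, at 857 ± 546 TPM, followed by Slc25a1 at 179 TPM and Srebf1 at 163 TPM. The 8 enzyme, carrier and accessory members summed to 1367, 2536 and 1704 TPM in WT, 737, 1944 and 1472 TPM in dHep and 456, 559 and 579.8 TPM in the libraries labelled KO. The labelled-KO sums lay below every other library, and the dHep and WT sums overlapped. Thrsp alone gave 558, 1112 and 531 TPM of the WT sums and 241, 1280 and 1050 TPM of the dHep sums. The overlap of dHep with WT rested on Thrsp, whose values spread widely in dHep.

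Srebf1 (mm10 chr11:60199089-60220604, minus strand), the gene of SREBP-1, was at 193, 258 and 184 CPM in WT, 339.5, 456 and 387 CPM in dHep and 404, 279 and 286 CPM in the libraries labelled KO. Every library of both PAR2 groups lay above every WT library. Srebf1 rose 1.86-fold in dHep (log2 fold change 0.90 ± 0.19 SE, edgeR adjusted p = 0.0101) and 1.52-fold in the libraries labelled KO (0.61 ± 0.19, adjusted p = 0.0284). The rise in dHep no longer passed without WT replicate 3 (adjusted p = 0.0548), nor with WT replicate 1 and dHep replicate 2 both left out (0.0643). The rise in the libraries labelled KO did not pass without WT replicate 1 (0.096), WT replicate 3 (0.109) or labelled-KO replicate 1 (0.0819, log2 fold change 0.43). Gene counts do not separate the SREBP-1a and SREBP-1c transcripts.

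Mlxipl (mm10 chr5:135106891-135138382, plus strand), the gene of ChREBP, was at 101, 86.2 and 82.6 CPM in WT, 236, 125 and 185 CPM in dHep and 169, 169 and 145 CPM in the libraries labelled KO. Again no library of either PAR2 group overlapped WT. Mlxipl rose 2.03-fold in dHep (1.02 ± 0.20, edgeR adjusted p = 0.0075) and 1.79-fold in the libraries labelled KO (0.84 ± 0.20, adjusted p = 0.00885), and both calls held under all 17 alternative analyses. The direct comparison of the libraries labelled KO with dHep called neither regulator. Its log2 fold changes were -0.29 ± 0.19 for Srebf1 (adjusted p = 0.345) and -0.18 ± 0.20 for Mlxipl (adjusted p = 0.59).

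Slc25a1 (mm10 chr16:17925211-17928219, minus strand), the carrier that exports citrate from mitochondria, was at 137, 163 and 152 CPM in WT, 161, 159 and 186 CPM in dHep and 169, 178 and 156 CPM in the libraries labelled KO. All groups overlapped. Its log2 fold change was 0.16 ± 0.11 in dHep (edgeR adjusted p = 0.281) and 0.15 ± 0.11 in the libraries labelled KO (adjusted p = 0.257).

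Acly (mm10 chr11:100476352-100528000, minus strand), ATP citrate lyase, which releases cytosolic acetyl-CoA from that citrate, was at 412, 954 and 631 CPM in WT and 264, 491 and 279.6 CPM in dHep. The libraries labelled KO were at 184, 191 and 193 CPM. All 3 of these lay below every other library, with an SD of 4.52 CPM against 273 CPM in WT. Acly fell 3.52-fold against WT in the libraries labelled KO (-1.81 ± 0.32, edgeR adjusted p = 0.00205). In dHep its log2 fold change was -0.95 ± 0.31, at an adjusted p of 0.0504, with dHep replicate 2 above WT replicate 1. Without dHep replicate 2 the change was -1.29 and passed (0.0124), and it passed as well without WT replicate 1 (0.0245) and by DESeq2 (0.00771). The range over its alternatives was 0.0033 to 0.197. WT replicate 1 was the lowest WT library for 7 members (Slc25a1, Acly, Acss2, Acaca, Acacb, Fasn and Me1). The part of the acinar and muscle RNA in these values was not tested.

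Acss2 (mm10 chr2:155518043-155562743, plus strand), the cytosolic enzyme that makes acetyl-CoA from acetate, was at 106, 149.6 and 142 CPM in WT and 104, 159.6 and 126 CPM in dHep. It was at 83.5, 77.8 and 83.3 CPM in the libraries labelled KO, below all 6 others. Acss2 fell 1.63-fold against WT (-0.70 ± 0.17, edgeR adjusted p = 0.00917) and 1.59-fold against dHep (-0.67 ± 0.17, adjusted p = 0.0389) in the libraries labelled KO. Its log2 fold change for dHep against WT was -0.03 ± 0.17 (adjusted p = 0.902). The call against dHep was lost in 9 of the 17 alternatives, among them without WT replicate 2 or 3, without dHep replicate 2 and without any 1 of the labelled-KO replicates, with the adjusted p rising to 0.126 at most.

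Acaca (mm10 chr11:84195438-84401651, plus strand), the cytosolic acetyl-CoA carboxylase that makes malonyl-CoA for synthesis, was at 199, 317 and 314 CPM in WT. It was at 73.8, 123 and 64.7 CPM in dHep and 52.6, 45.1 and 50.1 CPM in the libraries labelled KO. The 3 groups did not overlap, in the order WT, dHep, KO. Acaca fell 3.17-fold in dHep (-1.67 ± 0.25, edgeR adjusted p = 0.00246) and 5.62-fold in the libraries labelled KO (-2.49 ± 0.26, adjusted p = 0.000256), under all 17 alternatives. The direct difference between the PAR2 groups was -0.82 ± 0.25 (adjusted p = 0.0677), and it passed by DESeq2 (0.0111) and without dHep replicate 3 (0.0266).

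Acacb (mm10 chr5:114165518-114250758, plus strand), the carboxylase at the mitochondrial surface whose malonyl-CoA restrains fatty acid import for oxidation, had the largest fold change of the members in the libraries labelled KO against WT. It was at 62.7, 119.9 and 123 CPM in WT, 28.4, 108 and 28.9 CPM in dHep and 8.13, 8.00 and 7.21 CPM in the libraries labelled KO. The libraries labelled KO lay far below all others, and dHep split into 2 low libraries and replicate 2 at the WT level. That replicate was also the library with 427 CPM of skeletal muscle markers and 1319 CPM of acinar markers. The part of that RNA in its Acacb value was not tested. Acacb fell 13.1-fold against WT (-3.71 ± 0.54, edgeR adjusted p = 0.000929) and 7.06-fold against dHep (-2.82 ± 0.52, adjusted p = 0.0129) in the libraries labelled KO. Without dHep replicate 2 the difference from dHep was -1.88, and the call was lost without labelled-KO replicate 2 (0.0598) or 3 (0.0644). Against WT the dHep change was -0.89 ± 0.48 (adjusted p = 0.203) with all libraries and -1.83 (0.00244) without dHep replicate 2.

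Thrsp (mm10 chr7:97412957-97417510, minus strand), a small nuclear and cytosolic protein called Spot 14 that rises with lipogenic stimuli, was spread widely in dHep. It was at 266, 535 and 249 CPM in WT, 124, 742 and 697 CPM in dHep and 57.4, 111 and 149 CPM in the libraries labelled KO. The dHep libraries held both the highest values and 1 within the labelled-KO range. Thrsp fell 3.31-fold against WT (-1.73 ± 0.61, edgeR adjusted p = 0.045) and 4.93-fold against dHep (-2.30 ± 0.62, adjusted p = 0.0483) in the libraries labelled KO. The call against WT was lost in 8 of 17 alternatives, including without any 1 of the WT or labelled-KO replicates or dHep replicate 3 (0.0507 to 0.159). The call against dHep was lost in 11 of 17, among them without any 1 library other than dHep replicate 1 (0.0664 to 0.142). For dHep against WT the log2 fold change was 0.57 ± 0.60 (adjusted p = 0.514).

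Fasn (mm10 chr11:120805958-120824547, minus strand), the synthase that builds palmitate, was at 448, 1213 and 744 CPM in WT, 283, 477 and 247 CPM in dHep and 184, 253 and 194 CPM in the libraries labelled KO. The libraries labelled KO lay below all WT libraries, while dHep replicate 2 lay above WT replicate 1. Fasn fell 3.81-fold in the libraries labelled KO (-1.93 ± 0.36, edgeR adjusted p = 0.0029) and 2.39-fold in dHep (-1.26 ± 0.36, adjusted p = 0.0308). The dHep call was lost in 7 of 17 alternatives: leaving out WT replicate 2 (log2 fold change -0.83, adjusted p = 0.123), WT replicate 3, dHep replicate 1 or 3, or labelled-KO replicate 3 each ended it, as did voom (0.0768) and a fit of only the compared groups (0.0627). The direct comparison of both PAR2 groups gave -0.68 ± 0.35 (adjusted p = 0.241).

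Me1 (mm10 chr9:86581363-86695914, minus strand), cytosolic malic enzyme, which supplies NADPH, was at 304, 441 and 439 CPM in WT, 53.2, 121 and 59.3 CPM in dHep and 35.6, 51.9 and 63.5 CPM in the libraries labelled KO. All 6 libraries of the PAR2 groups lay below WT, and these 2 groups overlapped each other. Me1 fell 5.08-fold in dHep (-2.34 ± 0.33, edgeR adjusted p = 0.00197), the largest fall of any member there, and 7.85-fold in the libraries labelled KO (-2.97 ± 0.34, adjusted p = 0.000379). Both calls held under all 17 alternatives.

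**Figure D2:**
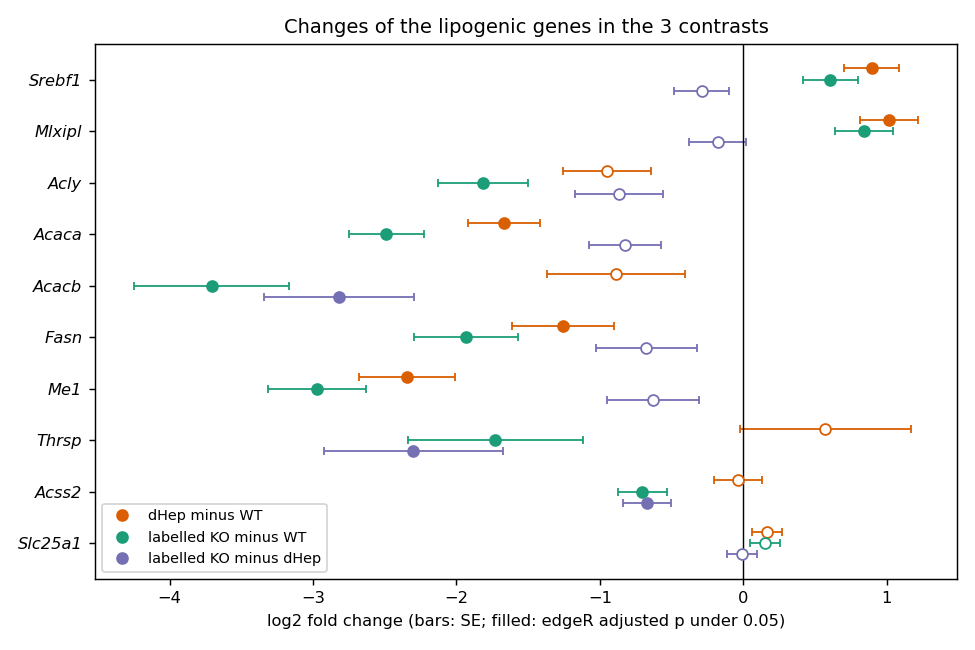
Log2 fold change (x axis) of each member for dHep against WT, the libraries labelled KO against WT and those against dHep, with the standard error as bars and filled points for genes past an adjusted p of 0.05. Srebf1 and Mlxipl lie right of 0 against WT and Acacb reaches -3.71.

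Overlap between libraries was also counted. Against WT, 2 members were higher and 7 lower in the libraries labelled KO with no library overlapping, where 32.4% and 33.8% of all genes were. For dHep, 2 were higher and 2 lower (Acaca and Me1), where 20.8% and 22.6% of all genes were. Between the PAR2 groups, 4 members were lower without overlap in the libraries labelled KO (Acly, Acss2, Acaca and Acacb), where 12.7% of all genes were. Acly and Acaca did not pass the test there, and Thrsp passed it although its libraries overlapped. Group means fell in the order WT, dHep, labelled KO for 6 of 10 members and for 26.8% of all genes tested.

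Within each library, enzyme transcripts were set against Srebf1 by TPM, which removes the effect of library scaling. WT libraries had a ratio of Fasn to Srebf1 of 1.00 to 2.03, dHep libraries 0.276 to 0.452 and those labelled KO 0.197 to 0.393. Acaca to Srebf1 was 0.491 to 0.814, 0.0795 to 0.128 and 0.0619 to 0.0835 in the same order, and Acly to Srebf1 was 2.07 to 3.58, 0.701 to 1.04 and 0.442 to 0.665. No library of either PAR2 group reached the WT range in any of these 3 ratios. The ratio of the carboxylases, Acacb to Acaca, spanned 0.335 to 0.415 for WT, 0.409 to 0.933 for dHep (0.933 in replicate 2) and 0.153 to 0.189 for the libraries labelled KO. These carboxylase transcripts therefore differed by unequal factors in the libraries labelled KO. Over the 9 libraries, log2 CPM of Acly, Acaca, Acacb, Fasn and Me1 correlated with each other at Pearson's r of 0.842 to 0.981 over 10 pairs, which is a description, since the groups form clusters and the libraries share tissue and depth. Other members followed these less closely or ran opposite: r was 0.513 for Thrsp with Acaca, 0.675 for Acss2 with Me1, -0.61 for Slc25a1 with Me1 and -0.92 for Mlxipl with Me1.

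**Figure D3:**
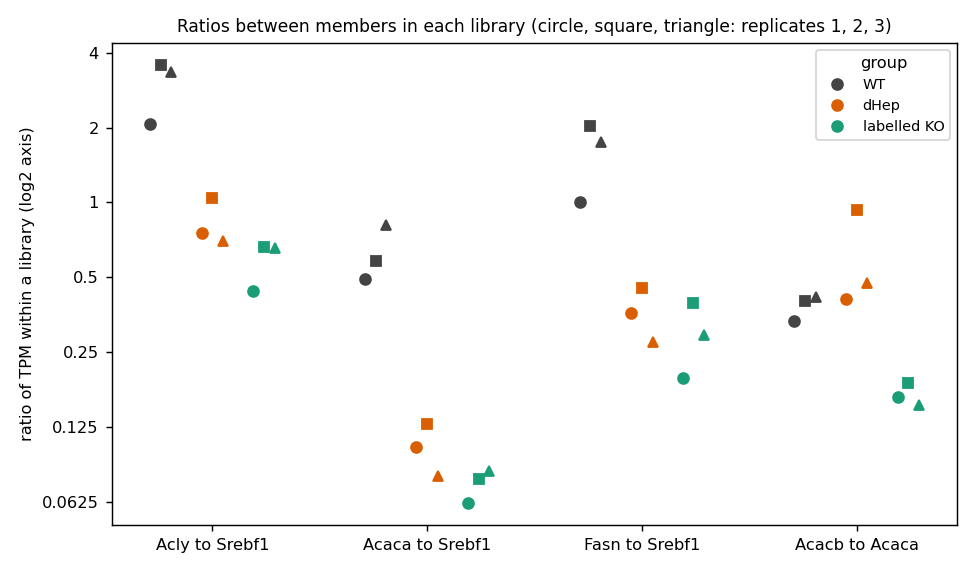
Within-library ratios of TPM (y axis, log2 scale) for Acly, Acaca and Fasn to Srebf1 and for Acacb to Acaca, 1 point per library in each of the 3 groups. Fasn to Srebf1 lies between 1.00 and 2.03 in WT and at most 0.452 in the 6 other libraries.

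By log2 CPM over the 9 libraries, Acly had a Pearson's r of 0.981 with Fasn. With the 10 members left out of the ranking, the genes most like Fasn were Gatsl3 (Pearson's r 0.972), Sox4 (0.966), Timeless (0.962), Cd52 (0.960) and Sdpr (0.955). The first 3 were at low levels: 0.808 to 2.70 CPM for Gatsl3, 0.517 to 2.45 CPM for Sox4 and 2.02 to 5.11 CPM for Timeless. In dHep against WT, edgeR did not call these 3, and it called them lower in the libraries labelled KO. The closest to Srebf1 outside the members were Abtb2 (0.953), Jup (0.952), Ppard (0.948), Hip1r (0.945) and Rab20 (0.943).

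Around the core, 62 genes of related steps were read in 6 lists, also chosen with earlier results of these data known. All 62 were tested. Of the 8 fatty acid and glyceride targets of SREBP-1c, 8 of 8 fell in the libraries labelled KO (median log2 fold change -2.45), 4 of 8 fell in dHep (-1.37) and 4 of 8 were lower in the libraries labelled KO than in dHep (-1.25). The shares called over all genes were 43.0%, 24.3% and 9.62%. Between the PAR2 groups the Scd1 call was lost in 12 of 17 alternatives, the Elovl6 call in 8 and the Fads2 call in 2. Fads1 kept its call under all 17. Scd1, the desaturase that makes oleate, had 8646 to 18168 CPM in WT and fell to 1433 to 3348 CPM in dHep (-2.54 ± 0.42, edgeR adjusted p = 0.00384) and 527 to 1068 CPM in the libraries labelled KO (-4.04 ± 0.45, adjusted p = 0.000339). Elovl6, which extends palmitate, fell by 2.95 ± 0.45 on the log2 scale in the libraries labelled KO (edgeR adjusted p = 0.00114). Elovl5, an elongase of polyunsaturated fatty acids, fell by 1.96 ± 0.26 in dHep livers and by 2.56 ± 0.27 in libraries labelled KO. Pnpla3, a lipase and transacylase of lipid droplets, fell by 2.51 ± 0.55 in dHep, from 1.95 to 5.52 CPM in WT to at most 0.839 CPM. The Pnpla3 call was lost without WT replicate 2 and by voom (adjusted p up to 0.111).

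Of 13 genes of SREBP processing and lipogenic regulation, 4 rose and 0 fell by edgeR in dHep (median 0.37; 2 were lower at an unadjusted p under 0.05 and 0 fell by DESeq2), and 6 rose and 1 fell in the libraries labelled KO (0.32). The shares called were 30.8% and 53.8% of the list, beside 24.3% and 43.0% of all genes. Scap, the escort of SREBP, ranged over 55.9 to 58.5 CPM for WT, 82.4 to 86.1 CPM for dHep and 95.3 to 109.6 CPM for the libraries labelled KO, without overlap. It rose by 0.56 ± 0.08 in dHep livers and by 0.82 ± 0.08 in libraries labelled KO (edgeR adjusted p = 0.00219 and 0.000231). Nr1h3, the liver X receptor of hepatocytes, rose by 0.47 ± 0.12 and 0.61 ± 0.12, and Usf1 by 0.40 ± 0.10 and 0.52 ± 0.10. In dHep the Nr1h3 call was lost without WT replicate 2 or 3 (up to 0.0869) and the Usf1 call without any 1 WT library (up to 0.074). Between the PAR2 groups the list had 1 gene higher and 1 lower in the libraries labelled KO, 15.4% of it, beside 9.62% of all genes. Insig1, which retains SCAP in the endoplasmic reticulum and is itself a target of SREBP, was lower (-0.94 ± 0.19, edgeR adjusted p = 0.0192). The Insig1 call was lost in 4 of 17 alternatives: without labelled-KO replicate 2 or 3, with only the compared groups, and without WT replicate 1 and dHep replicate 2 (up to 0.0838).

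Among 10 genes of the ChREBP partner and its glycolytic or fructolytic targets, 0 rose and 3 fell by edgeR in dHep (median -0.31; 1 was higher at an unadjusted p under 0.05 and 0 rose by DESeq2), and 1 rose and 4 fell in the libraries labelled KO (-0.18). That is 30% and 50% of the list, beside 24.3% and 43.0% of all genes. Txnip, a thioredoxin-binding protein induced by glucose, fell by 1.31 ± 0.34 in the libraries labelled KO (edgeR adjusted p = 0.0123), while Mlx, the partner of ChREBP, rose by 0.34 ± 0.11 there (edgeR adjusted p = 0.0321). The Txnip call was lost without labelled-KO replicate 3 (0.053), and the Mlx call was lost on leaving out any 1 WT or labelled-KO library (up to 0.133). Of 7 genes of NADPH supply, 1 rose and 1 fell in dHep (median -0.51), and 1 rose and 2 fell in the libraries labelled KO (-0.43). Those are 28.6% and 42.9% of the list, near the 24.3% and 43.0% called over all genes. Pgd, of the pentose phosphate pathway, had 72.5 to 92.4 CPM in WT and fell to 29.3 to 36.3 CPM in dHep (-1.32 ± 0.12, adjusted p = 0.00033) and 36.8 to 42.7 CPM in the libraries labelled KO (-1.06 ± 0.12).

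Acetyl-CoA and citrate supply, 15 genes, was mixed: 2 rose and 4 fell in dHep (median 0.11), and 1 rose and 4 fell in the libraries labelled KO (-0.22). The shares called were 40% and 33.3%, beside 24.3% and 43.0% over all genes. Acss3, a mitochondrial short-chain acyl-CoA synthetase, fell by 1.42 ± 0.19 in dHep livers and by 2.28 ± 0.20 in libraries labelled KO. Of 9 genes that control acetyl-CoA carboxylase, 5 rose and 1 fell in dHep (0.34), and 4 rose and 2 fell in the libraries labelled KO (0.19), which is 66.7% of the list in each case, beside 24.3% and 43.0% of all genes. Mid1ip1, a partner of Thrsp that promotes polymers of acetyl-CoA carboxylase, rose by 0.98 ± 0.21 in dHep (edgeR adjusted p = 0.0113). The Mid1ip1 call was lost in 3 of 17 alternatives: by voom, without WT replicate 3, and without WT replicate 1 and dHep replicate 2 (up to 0.0658). Stk11, the kinase LKB1 upstream of AMPK, which restrains the carboxylases, rose by 0.73 ± 0.11 and 0.94 ± 0.11. Subunits of AMPK itself went both ways. Prkab2 fell by 0.90 ± 0.20 in dHep and by 0.94 ± 0.20 in the libraries labelled KO, and Prkaa2 by 0.59 ± 0.15 in the latter. Prkag2 rose in dHep, and another subunit rose in both groups. The Prkab2 call in dHep was lost without WT replicate 1 or 3, and the Prkaa2 call without labelled-KO replicate 2. Between the PAR2 groups, edgeR called 1 gene of the ChREBP list higher in the libraries labelled KO and 0 lower (1 lower at an unadjusted p under 0.05 and 1 by DESeq2). Of NADPH supply it called 0 of 7, as did DESeq2 (1 higher and 2 lower at an unadjusted p under 0.05). For acetyl-CoA and citrate supply it called 0 higher and 3 lower, where 1 was higher and 5 lower both at an unadjusted p under 0.05 and by DESeq2. For control of the carboxylases it called 0 higher and 1 lower, the same counts as at an unadjusted p under 0.05 and by DESeq2. In the same order, edgeR called 10%, 0%, 20% and 11.1% of these lists, beside 9.62% of all genes.

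**Figure D4:**
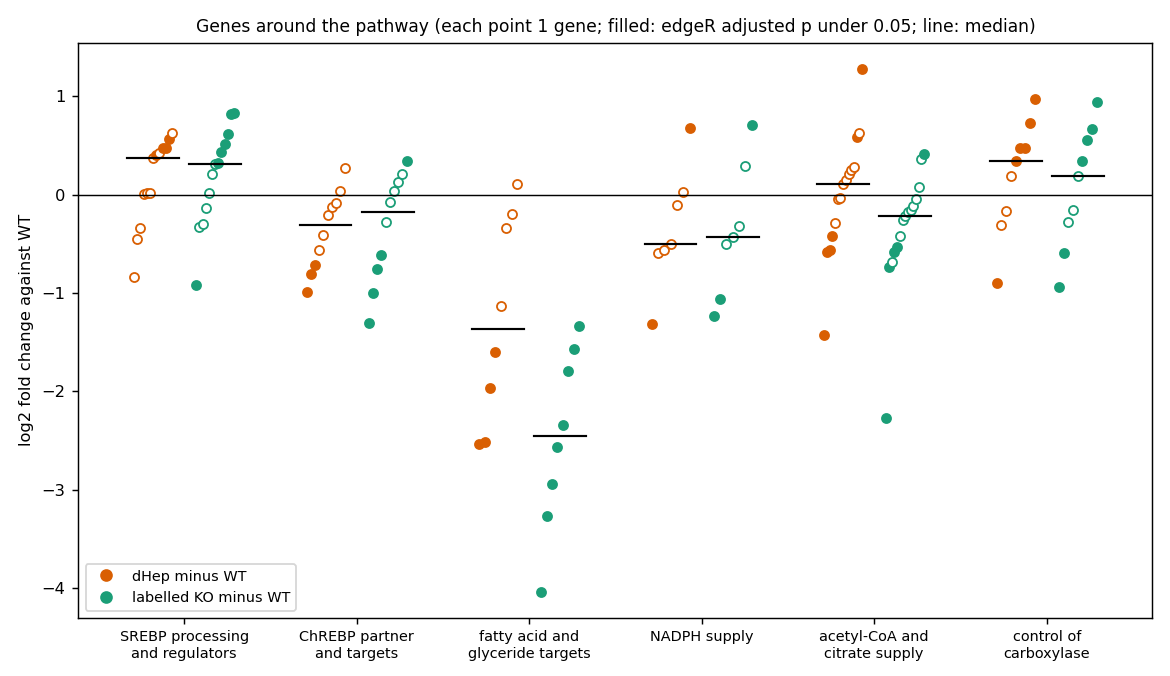
Log2 fold change against WT (y axis) of each gene in the 6 lists, for dHep and for the libraries labelled KO, with filled points for genes past an adjusted p of 0.05 and a line at each list's median. The list of fatty acid and glyceride targets has medians of -1.37 and -2.45, and the list of SREBP processing has medians of 0.37 and 0.32.

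The sums of macrophage and stellate cell markers were lower in the libraries labelled KO than in WT, without overlap. Of single genes tested, 33.8% were lower there without overlap, and no such share was computed for sums of genes. The 5 macrophage markers summed to 219 to 278 CPM for WT, 132 to 249 CPM for dHep and 51.4 to 99.4 CPM for the libraries labelled KO. The 5 stellate cell markers summed to 418 to 468, 269.6 to 429 and 210.1 to 285 CPM. Most of that sum was Dcn, and Des went the other way. Des had 2.85 to 5.10 CPM in WT and 6.19 to 6.90 CPM in the libraries labelled KO. Fat cells also express the lipogenic members. Of the 7 adipocyte markers, whose sum of 3475 to 6642 CPM is mostly Car3 that liver also makes, Adipoq had 8 to 12 reads for WT, 14 to 119 for dHep with the most in replicate 2, and 3 to 38 in the libraries labelled KO. Cidea, another of these markers, went the other way in dHep. It had 361 to 606 reads for WT, 3 to 32 for dHep and 8 to 38 in the libraries labelled KO. Of Ucp1 and Csn2, markers of brown fat and mammary lipogenic cells, 1 was at 0 in each group and the sum was at most 5.37 CPM. The part of these cells in the members' values was not tested.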

How the data were processed

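The authors' deposited table held raw counts of reads per gene, from HISAT2 2.1.0 alignments to mm10 per the submitters' processing notes and featureCounts 1.6.2 with strand setting 2 per the file headers. Its gene Length column, deposited by the authors, was used for TPM. Aligner settings, annotation release and sequencing batches are not given in the sources used here. The 9 libraries, 3 per group, are separate mice by their titles. Counts were fitted in 1 model with a mean per group by edgeR 4.0.16 (quasi-likelihood, TMM, filterByExpr with a minimum count of 10), with Benjamini-Hochberg adjustment over 13141 genes and a threshold of 0.05. TMM factors were 0.883 to 1.10. SE is the absolute log2 fold change over the square root of F. The script was tested on simulated data. Exact tests on single values were not used, since 3 against 3 cannot go below a p of 0.1. Overlap of groups and ranges for single genes and marker sums use TMM-scaled CPM. TPM is used to compare genes, for the sums over members and for the within-library ratios. Promoter windows are RefSeq's. The members and the lists were chosen with earlier results of these data known. Named genes are the 10 members, F2rl1, the 5 genes most correlated with Fasn and with Srebf1, and, by smallest adjusted p, up to 4 called genes per list and contrast. Not every such list gene is reported here. The cell marker lists were hepatocyte, adipocyte, acinar, skeletal muscle, enterocyte, macrophage, stellate and brown fat or mammary. The 17 alternatives covered DESeq2 1.42.0, limma 3.58.1 (voom), size factors, filters, the groups fitted, a replicate block and left-out libraries. Srebf1, Me1 and Acss2 overlap Rai1, A330041J22Rik and 4930471I20Rik on the opposite strand, and counting used strand.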

Additional observations from a re-analysis of the deposited data

How the results depend on the processing

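The 17 alternatives kept direction and side of the threshold for 149 of 170 member values in dHep against WT, 158 in KO against WT and 142 in KO against dHep. Members called were 5 for dHep against WT and 3 to 7 leaving out 1 library in turn (3 without WT replicate 3), 9 for KO against WT (7 to 9), and 3 for KO against dHep. The last count was 5 by DESeq2, 1 by voom with quality weights, 1 with only the compared groups, 1 without WT replicate 1 and dHep replicate 2, and 0 to 3 leaving out 1 library. It was 0 by edgeR without labelled-KO replicate 2 or 3, and 5 members had an unadjusted p under 0.05 in each case. All genes called were 3192, 5653 and 1264. Leaving out 1 library, the first was 1359 to 4025 (1952, 1438 and 1359 without WT replicates 1, 2 and 3). KO against dHep gave 2068 by DESeq2, 802 by voom, 342 with only those groups, 495 without the 2 libraries, and 386 to 2809 leaving out 1 library (692 and 722 without WT replicates 2 and 3, 807 without WT replicate 1, 419 and 386 without labelled-KO replicates 2 and 3, 2809 without dHep replicate 3). Alternatives that leave out libraries or a group fit fewer samples. For DESeq2 and voom, which fit all 9, the cause was not tested. Uncalled values changed sign for Thrsp in dHep against WT (-0.0090 by voom), and, leaving out 1 library, for Acss2 in dHep against WT (-0.21 to 0.10), Mlxipl (-0.39 to 0.0551) and Slc25a1 (-0.0529 to 0.0667) in KO against dHep. Replicate numbers did not pair the samples (correlation of deviations -0.27 to 0.03), and with a replicate block 6, 9 and 3 members and 2781, 5292 and 954 genes were called. Of the list genes named by rule, 10 of 21, 17 of 23 and 3 of 11 kept their call under every alternative. DESeq2's size factors moved the median of all genes by under 0.1 on the log2 scale. Read depth limits F2rl1, at 0 to 103 reads.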

Other observations

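A few genes of the related lists also differed between the PAR2 groups. Got1, cytosolic aspartate aminotransferase of the malate-aspartate shuttle, was at 107 to 166 CPM in WT and 120 to 135 CPM in the libraries labelled KO, but 294 to 349.6 CPM in dHep. It rose by 1.28 ± 0.16 on the log2 scale in dHep against WT (edgeR adjusted p = 0.00109), and was lower in the libraries labelled KO than in dHep (-1.32 ± 0.16, adjusted p = 0.00209). Gpd1, which makes glycerol 3-phosphate for glyceride synthesis, went the other way. The dHep libraries had 189 to 332 CPM, against 478 to 563 CPM for WT and 549.9 to 603 CPM for the libraries labelled KO, falling by 0.99 ± 0.19 in dHep against WT (adjusted p = 0.00594). It was 2.18-fold higher in the libraries labelled KO than in dHep (adjusted p = 0.00865). These 4 calls held under all 17 alternatives.

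Fads1 and Fads2, the desaturases of polyunsaturated fatty acid synthesis, were lower in the libraries labelled KO than in dHep (-1.68 ± 0.22, edgeR adjusted p = 0.00344, and -1.60 ± 0.28, adjusted p = 0.0101). Fads1 was at 487 to 795 CPM in WT, 630.2 to 881 CPM in dHep and 185 to 260.1 CPM in the libraries labelled KO. Its dHep libraries overlapped WT. Prkag2, a regulatory subunit of AMPK, was at 32.6 to 35.4 CPM in dHep, above the 20.9 to 27.8 CPM of the 6 other libraries. Its rise in dHep against WT (0.47 ± 0.11, edgeR adjusted p = 0.0147) was lost without WT replicate 1 or 3 (up to 0.0659). The difference of the libraries labelled KO from dHep (-0.63 ± 0.11, adjusted p = 0.0112) was lost without labelled-KO replicate 3 (0.0519). Fbxw7, part of the ligase that marks nuclear SREBP for breakdown, had 8.58 to 9.64 CPM in dHep, against 11.4 to 12.4 CPM for WT and 13.7 to 16.6 CPM in the libraries labelled KO. Fbxw7 was higher in the libraries labelled KO than in dHep (0.66 ± 0.12, adjusted p = 0.0112). In dHep against WT, Fbxw7 was not called (edgeR adjusted p = 0.0662). The Fads2 call was lost without labelled-KO replicate 2 or 3 (up to 0.0505), and the Fbxw7 call without labelled-KO replicate 3 or with only the compared groups (up to 0.0613).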
